A study of Mus musculus with 6 samples.

Results

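The 10 genes of the apicobasal polarity complexes studied here were compared between primary mouse keratinocytes and mouse embryonic fibroblasts (MEFs): *Pard3*, *Pard6b*, *Pard6g*, *Prkci* and *Prkcz* of the Par complex, *Crb3* of the Crumbs complex, and *Scrib*, *Dlg1*, *Llgl1* and *Llgl2* of the Scribble module. They were found by symbol among the probe sets that the platform's probe table pairs with exactly 1 gene, which gave 10 of 10261 genes and 11 of 11288 probe sets, since *Prkcz* has 2. The RNA was read on 6 arrays of the type Affymetrix MoGene-1_0-st, on which each transcript is read by a set of short probes that gives 1 log2 signal per array. The study took the arrays as an epithelial and a mesenchymal state. It told these states apart within each dataset from the levels of *Cdh1*, *Epcam*, *Fn1* and *Vim*. The 3 keratinocyte-labelled arrays stand for the main cell type of the epidermis, isolated from the back skin of newborn mice at postnatal day 0, grown in Epidermal Keratinocyte Medium (CnT-07), with no strain given. The 3 MEF-labelled arrays stand for fibroblasts of E13.5 embryos grown in DMEM with fetal bovine serum. The embryos were described as C57BL/6J, while the isolation protocol names DR-4 as the strain desired. That protocol pools the embryos of a preparation after the head and inner organs are removed. No treatment was applied to either group, and the arrays of each group were numbered as biological replicates. Because each cell type had its own age and medium, cell type, age and culture cannot be told apart.

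The labels were first checked with *Cdh1*, which encodes the epithelial adhesion molecule E-cadherin, and *Vim*, which encodes the mesenchymal filament protein vimentin. The log2 signal of *Cdh1* was 3.33, 2.16 and 3.26 on the keratinocyte-labelled arrays and 8.62, 8.59 and 8.73 on the MEF-labelled arrays, at least 7.71-fold higher on the latter (adjusted p = 4.03e-07, limma). That of *Vim* was 11.93, 11.97 and 12.03 on the keratinocyte-labelled arrays and 3.81, 3.92 and 3.78 on the MEF-labelled arrays, at least 48.1-fold higher on the former (adjusted p = 7.89e-10). Both genes ran against the labels on all 6 arrays. The longer marker lists did the same. All 7 keratinocyte markers were higher on the MEF-labelled arrays, with a summed signal (log2) of 13.76 to 13.77 there and 5.75 to 6.03 on the other arrays. All 7 fibroblast markers were higher on the keratinocyte-labelled arrays, at 14.13 to 14.18 against 6.60 to 6.82. Whether the labels or the columns of values were exchanged was not tested, so the origin, age and medium given above belong to the labels. The groups are therefore named throughout by their labels, and every direction below is a direction between labelled groups. No array could be set aside for this, since all 6 were affected.

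The arrays within a group resembled each other far more than those of the other group. Across named probe sets (no independent replicates), Pearson's r was 0.985 to 0.989 among keratinocyte-labelled arrays, 0.991 to 0.994 among the MEF-labelled arrays and 0.629 to 0.647 across the groups. A gene was taken as above background on an array when its signal exceeded the 95th percentile of the signals of 10 olfactory receptors there. This level was 5.49 to 5.92 on the keratinocyte-labelled arrays and 6.05 to 6.58 on the MEF-labelled arrays. Where a gene was above it on no array of a group, its fold is given as "at least", against the background level of that group's arrays. Of the other cell types whose markers were read, 2 of 5 macrophage markers were measured and gave a summed signal (log2) of 5.58 to 6.23 on the keratinocyte-labelled arrays and 8.45 to 8.69 on the MEF-labelled arrays, with *Cd68* higher on the latter and *Lyz2* on the former. The 2 measured muscle markers of 4 gave 7.19 to 7.94 against 5.44 to 5.71, and the 4 cartilage markers gave 9.11 to 9.26 against 8.12 to 8.20, with *Col2a1* higher on the keratinocyte-labelled arrays, *Sox9* higher on the MEF-labelled arrays, and *Acan* and *Col9a1* above background on no array. *Kdr*, the measured endothelial marker of 4, was above background on no array. No probe set was named for the markers of melanocytes, Schwann cells or Langerhans cells. The part of other cell types in the results was not tested.

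Epithelial cells keep an apical face apart from their basolateral face by protein complexes that oppose each other. The Par complex, made of the scaffold Par3, the adaptor Par6 and an atypical protein kinase C, acts at the apical border and at tight junctions. The Crumbs complex defines the apical membrane, with the transmembrane protein Crumbs held by the scaffolds Pals1 and Patj. The Scribble module of Scrib, Dlg and Lgl proteins acts on the basolateral side, and atypical protein kinase C phosphorylates Lgl and removes it from the apical cortex. Loss of this order is a known feature of the epithelial to mesenchymal transition (EMT), the program through which epithelial cells take on a mesenchymal state.

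Of the 10 polarity genes, 8 were higher on the MEF-labelled arrays, which carried the high *Cdh1* signal, 0 were higher on the keratinocyte-labelled arrays, and 2 did not pass the test. The count of 0 was the same at an unadjusted p under 0.05 in limma and by the methods' t-test. The threshold was an adjusted p under 0.05 in limma, with Benjamini-Hochberg adjustment over the 11288 probe sets. Passing it was common here: 74.5% of the 10261 genes passed in either direction, 41.7% as higher on the MEF-labelled arrays and 32.9% as higher on the keratinocyte-labelled arrays. A share of 8 in 10 that passed is thus near the background, while all 8 had the same direction. The groups did not overlap for 8 of the 10 genes, against 78.4% of all genes. The median difference, MEF-labelled arrays minus keratinocyte-labelled arrays, was 0.89 on the log2 scale over the 10 genes and 0.12 over all genes. The differences ranged from over 2 on the log2 scale for *Prkcz*, *Llgl2*, *Pard6b* and *Pard6g* to under 1 for *Crb3*, *Pard3*, *Scrib* and *Prkci*, where *Prkcz* stands among the large ones by its brighter probe set and was at 0.42 by its dimmer one. Only *Dlg1* and *Llgl1* did not pass, and both passed as higher on the keratinocyte-labelled arrays after median centring or quantile normalization of the arrays. On bulk arrays, fewer cells of a type and less RNA per cell cannot be told apart.

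**Figure D1:**
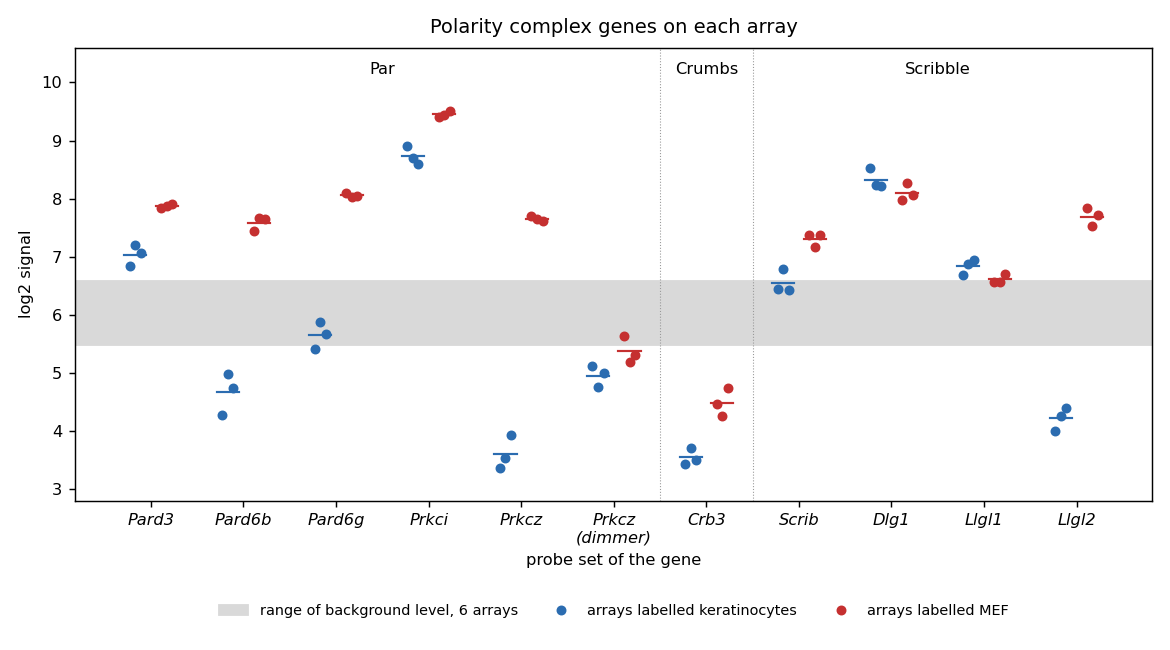
Log2 signal (vertical axis) of the 11 probe sets of the polarity genes on each of the 6 arrays. Each point is 1 array, blue for keratinocyte-labelled arrays and red for MEF-labelled arrays, the short lines are group means (n = 3), and the grey band spans the background level of the 6 arrays (5.49 to 6.58). The red points lie above the blue ones for every probe set except those of *Dlg1* and *Llgl1*, where the groups overlap, and *Crb3* and the dimmer *Prkcz* probe set lie in or under the band. Only values of the same probe set can be set against each other.

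Among the Par genes, *Pard3* encodes the scaffold that is recruited to forming tight junctions. Its log2 signal was 6.84, 7.20 and 7.06 on the keratinocyte-labelled arrays and 7.83, 7.88 and 7.90 on the MEF-labelled arrays. Every MEF-labelled array was higher, by a gap of 0.62 between the groups, and all 6 arrays were above background. The difference, here and below as MEF-labelled arrays minus keratinocyte-labelled arrays, was 0.83 (SE 0.11, 95% interval 0.58 to 1.09), a 1.78-fold difference with an adjusted p of 1.95e-04. By size it was rank 3581 of the 10261 genes.

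The Par6 adaptors link the kinase to Par3 and to the GTPase Cdc42. *Pard6b* read 4.28, 4.98 and 4.74 on the keratinocyte-labelled arrays and 7.44, 7.67 and 7.64 on the MEF-labelled arrays. It was above background only on the MEF-labelled arrays, and the groups were 2.46 apart at their nearest. The difference of 2.92 (SE 0.17, 2.52 to 3.31) was at least 3.69-fold (adjusted p = 1.28e-06) and held rank 753. *Pard6g* read 5.41, 5.88 and 5.66 against 8.10, 8.02 and 8.04. The MEF-labelled arrays were again all higher, and just 1 of the 3 keratinocyte-labelled arrays was above background. Its difference was 2.41 (SE 0.13, 2.12 to 2.70), or 5.30-fold (adjusted p = 6.01e-07), at rank 994.

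The atypical protein kinases C are the catalytic part of the complex. *Prkci*, which encodes the iota form, gave 8.90, 8.70 and 8.60 on the keratinocyte-labelled arrays and 9.41, 9.44 and 9.51 on the MEF-labelled arrays. The groups did not overlap and all arrays were above background, with a difference of 0.72 (SE 0.10, 0.48 to 0.96), 1.65-fold (adjusted p = 3.02e-04). At rank 4176 it was the smallest difference among the 8 polarity genes that passed, with *Prkcz* taken from its brighter probe set (0.42 by the dimmer one).

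*Prkcz*, which encodes the zeta form, was read by 2 probe sets that gave different sizes. They are called brighter and dimmer by their mean over all 6 arrays, an order that comes from the MEF-labelled arrays. On the keratinocyte-labelled arrays alone, the dimmer one had the higher signal. The brighter one, probe set 10561335, gave 3.36, 3.54 and 3.93 on the keratinocyte-labelled arrays and 7.70, 7.64 and 7.62 on the MEF-labelled arrays. It was above background only on the latter, and its difference of 4.04 (SE 0.14, 3.71 to 4.37) was at least 3.87-fold (adjusted p = 6.13e-08), at rank 400. The dimmer one, probe set 10519117, gave 5.11, 4.75 and 5.00 against 5.63, 5.19 and 5.31. It was above background on no array, so no fold is given, and its groups were 0.09 apart, with a difference of 0.42 (SE 0.14, 0.10 to 0.75, adjusted p = 0.0258). The numbers of the probe sets of this array mostly follow the genome: 91.0% of 11270 consecutive pairs of named probe sets lie on the same chromosome. All 8 neighbours of the dimmer probe set in number lie on chromosome 4, as *Prkcz* does, while none of the 8 neighbours of the brighter one does and 7 lie on chromosome 7. For the other polarity genes, 7 or 8 of the 8 neighbours lie on the gene's own chromosome. Whether the brighter probe set reads *Prkcz* was not tested, and the large difference given for this gene rests on it.

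The promoters of *Prkcz* and *Pard6b* are shown because these are the largest differences among the polarity genes with an entry in the RefSeq promoter table (GRCm38.p6), for *Prkcz* by its brighter probe set alone. Each is the 250 bases before an annotated start, 5′ to 3′ on the gene's strand, chr4:155361429-155361678 on the minus strand and chr2:168080754-168081003 on the plus strand. Capitals mark CACCTG or its reverse complement CAGGTG, searched on both strands. This E-box form is bound by factors of the Zeb and Snail families, which the study names as EMT inducers.
Prkcz: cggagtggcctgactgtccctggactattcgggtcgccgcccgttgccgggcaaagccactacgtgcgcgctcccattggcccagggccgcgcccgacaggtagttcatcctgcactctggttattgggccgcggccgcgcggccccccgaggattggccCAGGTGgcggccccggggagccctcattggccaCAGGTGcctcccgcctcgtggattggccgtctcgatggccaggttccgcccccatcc
Pard6b: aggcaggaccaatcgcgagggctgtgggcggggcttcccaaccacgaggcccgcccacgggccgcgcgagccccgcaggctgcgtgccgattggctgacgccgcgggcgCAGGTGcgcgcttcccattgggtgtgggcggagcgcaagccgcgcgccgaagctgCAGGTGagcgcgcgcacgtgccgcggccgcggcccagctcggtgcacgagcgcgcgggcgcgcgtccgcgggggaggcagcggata
The *Prkcz* window holds the motif 90 and 57 bases before the start, and the *Pard6b* window holds it at 141 and 86 bases. Of 32851 promoters in the table, 17.2% hold the motif in this window and 2.1% hold it 2 times or more. A match describes these letters and does not show that a factor binds there.

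*Crb3* encodes the Crumbs protein of most epithelia. Its log2 signal was 3.43, 3.71 and 3.50 on the keratinocyte-labelled arrays and 4.47, 4.25 and 4.73 on the MEF-labelled arrays. The MEF-labelled arrays were all higher, but no array was above background, so the gene has a direction without a fold. The difference was 0.94 (SE 0.14, 0.62 to 1.26, adjusted p = 3.79e-04), at rank 3168. Its promoter, chr17:57061951-57062200 on the plus strand, is printed in the same manner and was chosen after its number of motifs was seen.
Crb3: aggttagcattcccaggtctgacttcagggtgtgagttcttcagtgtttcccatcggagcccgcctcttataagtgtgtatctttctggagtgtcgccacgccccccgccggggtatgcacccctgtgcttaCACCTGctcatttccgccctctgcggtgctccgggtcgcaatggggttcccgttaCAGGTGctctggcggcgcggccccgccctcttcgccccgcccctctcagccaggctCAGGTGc
The motif stands 118, 63 and 7 bases before this start. In the table, 0.25% of the promoters hold 3 or more, a share that carries no weight here because the window was chosen by that number. The table has a further start for *Crb3* a short way downstream, whose window holds the same 3 copies at 148, 93 and 37 bases.

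In the Scribble module the genes differed from each other. *Scrib* encodes the basolateral scaffold itself and read 6.44, 6.79 and 6.43 on the keratinocyte-labelled arrays and 7.38, 7.17 and 7.37 on the MEF-labelled arrays. All 6 arrays were above background and the groups were 0.39 apart. The difference was 0.75 (SE 0.12, 0.47 to 1.04), 1.69-fold (adjusted p = 6.82e-04), at rank 3993. *Dlg1*, a membrane-associated guanylate kinase scaffold, read 8.52, 8.23 and 8.22 against 7.98, 8.26 and 8.06. Its groups overlapped and the difference of -0.22 (SE 0.12, -0.50 to 0.06) did not pass (adjusted p = 0.125). With median centring it passed as higher on the keratinocyte-labelled arrays by 0.32 (adjusted p = 0.0367), and with quantile normalization by 0.30 (adjusted p = 0.0457).

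The Lgl proteins, which atypical protein kinase C keeps off the apical side, are encoded by a pair of paralogs. *Llgl1* gave 6.69, 6.87 and 6.94 on the keratinocyte-labelled arrays and 6.56, 6.57 and 6.70 on the MEF-labelled arrays. The groups just overlapped, all 6 arrays were above background, and the difference of -0.22 (SE 0.10, -0.46 to 0.01) did not pass (adjusted p = 0.0726). It passed as higher on the keratinocyte-labelled arrays with median centring (by 0.32, adjusted p = 0.016), with quantile normalization (by 0.33, adjusted p = 0.0166) and without the first keratinocyte-labelled array (by 0.30, adjusted p = 0.0252). *Llgl2*, known for its expression in epithelia, gave 3.99, 4.26 and 4.40 against 7.83, 7.53 and 7.71. It was above background only on the MEF-labelled arrays, with the groups 3.13 apart, and its difference of 3.47 (SE 0.13, 3.17 to 3.78) was at least 3.97-fold (adjusted p = 8.62e-08), at rank 551.

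**Figure D2:**
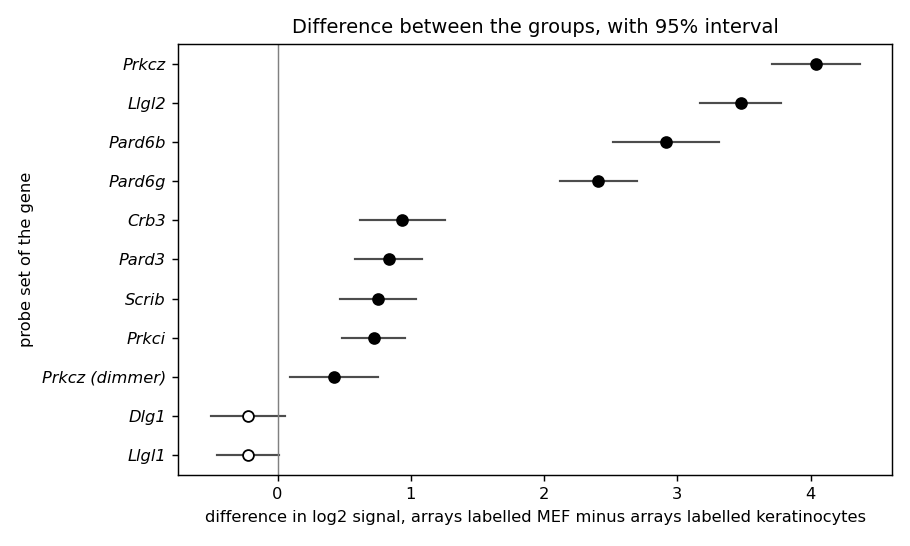
Difference in log2 signal (horizontal axis, MEF-labelled arrays minus keratinocyte-labelled arrays) of each probe set of the polarity genes. Points are the limma estimates from 3 arrays a group, bars are 95% intervals, and open points did not pass an adjusted p of 0.05. The differences run from 4.04 for the brighter *Prkcz* probe set to -0.22 for *Dlg1* and *Llgl1*, whose intervals include 0 as deposited and which passed after median centring or quantile normalization.

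*Scrib* and *Dlg1*, which share the module, were both above background on all 6 arrays, so the difference of their log2 signals within an array could be compared between the groups. It was higher by 0.98 on the MEF-labelled arrays than on the keratinocyte-labelled arrays, without overlap of the groups. The exact two-sided permutation p was 0.1 (0.125 after Benjamini-Hochberg adjustment over 5 such ratios), and with 3 arrays against 3, 0.1 is the smallest p this test can give. The other 4 ratios, of the Par6, atypical protein kinase C and Lgl genes, rest on signals not above background and are not given.

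Further genes of the 3 complexes were read from wider lists, whose counts include the polarity genes described above. Of the Par complex list, 7 of 8 genes were measured: 5 were higher on the MEF-labelled arrays, 1 was higher on the keratinocyte-labelled arrays and 1 did not pass. Over all genes, 41.7% and 32.9% passed in these directions. The 5 were the genes already described, *Pard3*, *Pard6b*, *Pard6g*, *Prkci* and *Prkcz*, so no further Par gene was higher on the MEF-labelled arrays. The gene against the direction of the list was *Cdc42*, the GTPase that activates the complex through Par6, at 9.90 ± 0.05 on the keratinocyte-labelled arrays and 9.24 ± 0.15 on the MEF-labelled arrays (mean log2 signal ± SD, n = 3 here and below), 1.58-fold higher on the former (adjusted p = 4.91e-04). *Pard6a*, the remaining Par6 gene, was above background on no array, at 4.54 ± 0.18 and 4.43 ± 0.12 (adjusted p = 0.413). Of the Crumbs list, 5 of 8 genes were measured, 4 were higher on the MEF-labelled arrays, with *Crb3* among them, and 1, *Lin7b*, did not pass. *Patj*, the scaffold with many PDZ domains, was at 4.41 ± 0.06 and 6.88 ± 0.12, at least 2.27-fold higher on the MEF-labelled arrays (adjusted p = 1.09e-07). *Lin7c*, an adaptor bound by Pals1, was 2.82-fold higher there (7.10 ± 0.16 and 8.60 ± 0.03, adjusted p = 3.55e-06). *Mpp5*, which encodes Pals1, was 1.43-fold higher (6.38 ± 0.28 and 6.90 ± 0.15, adjusted p = 0.0137).

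The Scribble list went both ways. Of 11 genes, 9 were measured: 4 were higher on the MEF-labelled arrays, 3 on the keratinocyte-labelled arrays and 2 did not pass. With median centring these counts were 3, 5 and 1, and with quantile normalization 3, 4 and 2. As deposited, the 4 include *Scrib* and *Llgl2*, and the 2 are *Dlg1* and *Llgl1*, all described above. Over all genes, 41.7% passed as higher on the MEF-labelled arrays and 32.9% as higher on the keratinocyte-labelled arrays. *Lrrc1*, a close relative of *Scrib*, was at 4.42 ± 0.27 on the keratinocyte-labelled arrays and 6.26 ± 0.02 on the MEF-labelled arrays, and 1 MEF-labelled array was above background (at least 1.47-fold higher there, adjusted p = 5.03e-06). Higher on the keratinocyte-labelled arrays were *Dlg4*, best known as a scaffold of synapses (6.87 ± 0.10 and 4.45 ± 0.27, at least 1.40-fold, adjusted p = 1.25e-06), and *Erbin*, a leucine-rich scaffold of the basolateral membrane (8.82 ± 0.06 and 8.41 ± 0.11, 1.33-fold, adjusted p = 0.00427). *Dlg3* was above background on no array and passed narrowly (adjusted p = 0.0313), which it did not with quantile normalization (adjusted p = 0.0618). *Dlg5*, 1.18-fold higher on the MEF-labelled arrays (adjusted p = 0.0471), did not pass with median centring (adjusted p = 0.182) or quantile normalization (adjusted p = 0.129).

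Beyond these complexes, the lists held the kinases and adaptors that act with them, the junction receptors that recruit Par3, the apical domain and the planar polarity genes. Over all the polarity lists, with the wider Par, Crumbs and Scribble lists included, 57 genes were measured besides the 10 genes above. Of these 57, 32 were higher on the MEF-labelled arrays, 18 on the keratinocyte-labelled arrays and 7 did not pass. Of all genes, 41.7% and 32.9% passed in these directions. For 51 of the 57 the groups did not overlap, as for 78.4% of all genes, and the median difference, MEF-labelled arrays minus keratinocyte-labelled arrays, was 0.45, beside 0.12 over all genes.

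**Figure D3:**
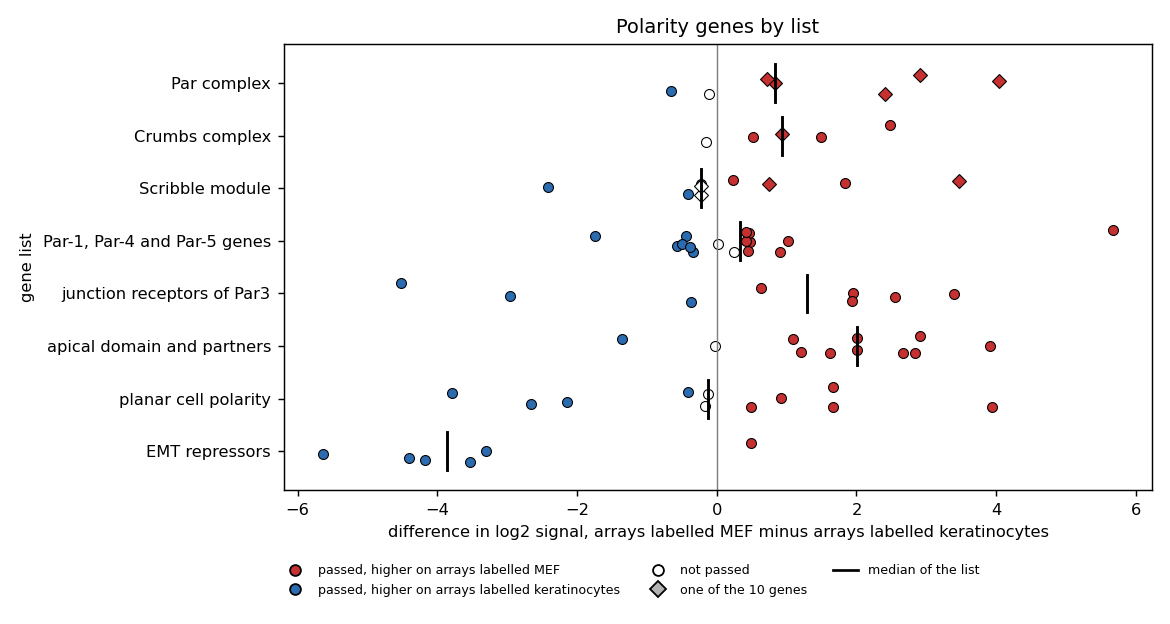
Difference in log2 signal (horizontal axis, MEF-labelled arrays minus keratinocyte-labelled arrays) of each measured gene, by list. Red and blue points passed an adjusted p of 0.05 in limma as higher on the MEF-labelled or the keratinocyte-labelled arrays, open points did not, diamonds are the 10 genes described above, and black lines are list medians. Over all genes, 41.7% passed on the red side and 32.9% on the blue side. The apical domain list has 9 of 11 genes on the red side with a median of 2.01, where *Podxl*, above background on no array, lies. The list labelled EMT repressors has 5 of 6 genes on the blue side. It holds the Zeb, Snail and Twist factors, of which the study names those of Zeb and Snail as EMT inducers. The Scribble list is mixed, with *Dlg1* and *Llgl1* open as deposited and blue after median centring or quantile normalization.

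The junction receptors of Par3 and the apical domain had the largest median differences among the polarity lists. All 8 junction genes passed, 5 as higher on the MEF-labelled arrays and 3 as higher on the keratinocyte-labelled arrays, with a median of 1.29 toward the former. Of all genes, 41.7% and 32.9% passed in these directions. Among the 5, *Nectin4* was above background on no array (3.64 ± 0.44 and 4.28 ± 0.21, adjusted p = 0.0249, limma) and *Jam2* on 1 MEF-labelled array. *F11r*, which encodes the tight junction receptor JAM-A, was at 5.24 ± 0.14 on the keratinocyte-labelled arrays and 8.63 ± 0.03 on the MEF-labelled arrays, at least 7.63-fold higher on the latter (adjusted p = 2.12e-08). *Nectin1*, an adhesion receptor of adherens junctions, was 5.87-fold higher on them (6.10 ± 0.32 and 8.65 ± 0.03, adjusted p = 1.45e-06). Of the 3 with the opposite sign, *Jam3* was at 5.81 ± 0.38 on the keratinocyte-labelled arrays, where 2 of 3 arrays were above background, and at 1.29 ± 0.42 on the MEF-labelled arrays (adjusted p = 7.06e-07, no fold). *Nectin3* was at 6.61 ± 0.21 and 3.65 ± 0.67 (at least 1.17-fold, adjusted p = 3.53e-05), and *Nectin2* at 6.15 ± 0.23 and 5.77 ± 0.08 (adjusted p = 0.0266, no fold), above background only on the keratinocyte-labelled arrays. Both the JAM and the nectin family thus had members in each direction.

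Of the apical domain list, 11 of 12 genes were measured. Of these, 9 were higher on the MEF-labelled arrays, 1 was higher on the keratinocyte-labelled arrays and 1 did not pass, beside 41.7% and 32.9% of all genes in these directions. The median was 2.01 toward the MEF-labelled arrays. That median is the difference of *Podxl*, which was above background on no array (2.41 ± 0.61 and 4.42 ± 0.08). *Epb41l4b*, also among the 9, was above background on 1 MEF-labelled array. *Ezr*, which encodes ezrin, the linker of apical membrane and actin, was 15.1-fold higher on the MEF-labelled arrays (6.30 ± 0.07 and 10.22 ± 0.07, adjusted p = 6.79e-09). *Mpp7*, a scaffold that binds Dlg1, was 7.53-fold higher (5.56 ± 0.55 and 8.47 ± 0.15, adjusted p = 1.2e-05), with 2 of 3 keratinocyte-labelled arrays above background. *Wwc1*, which encodes the scaffold KIBRA, was at least 3.24-fold higher (4.56 ± 0.21 and 7.40 ± 0.05, adjusted p = 1.59e-07). *Epb41l5* was at least 1.85-fold higher (3.92 ± 0.16 and 6.58 ± 0.06, adjusted p = 1.16e-07), with 2 of 3 MEF-labelled arrays above background. The gene with the opposite sign was *Amotl2* of the angiomotin family, 2.55-fold higher on the keratinocyte-labelled arrays (8.20 ± 0.08 and 6.85 ± 0.09, adjusted p = 3.39e-06).

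The kinases and adaptors of the list of Par-1, Par-4 and Par-5 genes comprise the Mark kinases, Stk11 with its partners, and the Ywha and Sfn phosphoprotein adaptors. All 16 were measured, and 8 were higher on the MEF-labelled arrays, 6 on the keratinocyte-labelled arrays and 2 did not pass. Over all genes, 41.7% and 32.9% passed in these directions. *Sfn*, an adaptor known from stratified epithelia, was at least 19.9-fold higher on the MEF-labelled arrays (4.34 ± 0.32 and 10.01 ± 0.08, adjusted p = 1.48e-08). *Mark2* was 2.03-fold higher there (7.10 ± 0.11 and 8.12 ± 0.03, adjusted p = 1.8e-05) and *Cab39l*, a partner of Stk11, 1.87-fold (adjusted p = 2.51e-04). *Mark1* was the reverse, at 5.78 ± 0.21 on the keratinocyte-labelled arrays, of which 2 of 3 were above background, and 4.04 ± 0.15 on the MEF-labelled arrays (adjusted p = 6.15e-06, no fold). The other 5 that were higher on the keratinocyte-labelled arrays differed little: *Stk11* by 1.49-fold, *Ywhag* by 1.42-fold, *Ywhah* by 1.31-fold and *Mark4* by 1.26-fold, while *Stradb* (adjusted p = 0.01) had no fold.

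Factors of the Zeb and Snail families, named by the study as EMT inducers that repress *Cdh1*, bind the E-box form marked in the promoters above. They were read together with the Twist factors. Of these 6 genes 5 were higher on the keratinocyte-labelled arrays and 1 was higher on the MEF-labelled arrays. Over all genes, 32.9% and 41.7% passed in these directions. With 2 groups, any gene that differs runs either with or against the 8 polarity genes that passed, so an opposite direction alone shows no link. *Zeb1* gave 7.68, 8.07 and 7.95 on the keratinocyte-labelled arrays and 1.86, 2.14 and 2.81 on the MEF-labelled arrays, at least 2.86-fold higher on the former (adjusted p = 1.32e-07). *Snai1* (8.34 ± 0.19 and 4.81 ± 0.22) was at least 3.89-fold higher on them (adjusted p = 1.21e-07) and *Twist1* (8.64 ± 0.04 and 5.34 ± 0.26) at least 4.78-fold (adjusted p = 1.2e-07). *Twist2* and *Zeb2* had the same direction, with adjusted p-values of 4.01e-08 and 6.25e-08. *Snai2* was the exception. It gave 8.42, 8.17 and 8.51 on the keratinocyte-labelled arrays and 8.84, 8.91 and 8.83 on the MEF-labelled arrays, 1.41-fold higher on the latter (adjusted p = 0.0034). Whether these factors act on the polarity genes was not tested.

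The promoter table had entries for 7 of the 10 polarity genes, with 14 windows in all, and none for *Llgl2*, *Scrib* and *Pard6g*. The motif was found in 6 windows of 4 genes, *Pard6b*, *Prkcz*, *Pard3* and *Crb3*, beside 17.2% of all promoters. The windows of *Crb3* overlap and hold the same copies, and genes with several starts count more than once. The 6 windows are thus not separate promoters, and no enrichment was tested. Besides the windows printed, *Prkcz* held the motif 153 bases before another start. *Pard3* held it 220, 203 and 166 bases before an internal start while its window farther upstream held none. The windows of *Prkci*, *Llgl1* and *Dlg1* held none. With the whole 300 bases of each entry, which reach past the start, 7 windows held the motif, the added one being of *Dlg1*, and the share over all promoters was 20.2%. *Prkci* passed the test without the motif in this window, and *Dlg1* and *Llgl1*, which did not pass as deposited, were also without it in the 250 bases. Whether the motif bears on the differences between the groups was not tested.

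**Figure D4:**
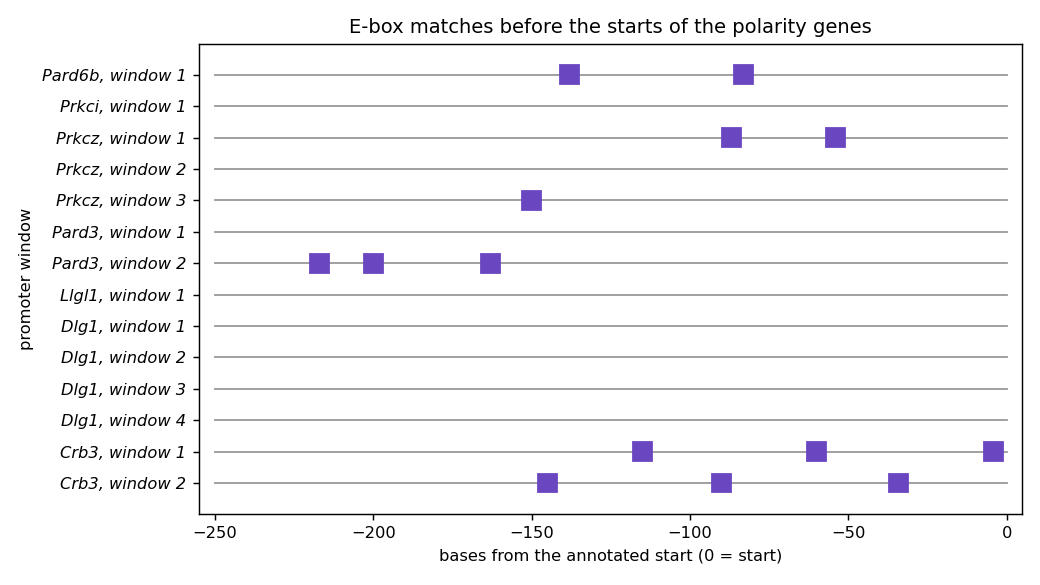
Position of CACCTG or CAGGTG in the 14 promoter windows of the 7 polarity genes with an entry (horizontal axis, bases relative to the annotated start at 0; 1 line per window). Marks are matches on either strand. They occur in windows of *Pard6b*, *Prkcz*, *Pard3* and *Crb3*, and the windows of *Prkci*, *Llgl1* and *Dlg1* carry none in the 250 bases before the start.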

How the data were processed

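The authors deposited log2 signals of 15648 probe sets on 6 arrays, in 1 table. The study's methods give oligo and RMA for normalization, and version 1.46.0 of oligo comes from the processing notes of the submitters. That the values are RMA output was inferred from their range. RMA draws arrays to a shared distribution and compresses dim signals. The platform's table paired 11288 probe sets with 1 gene symbol and 645 with several, and 3715 were not listed; the latter kinds were left unnamed. Each gene was read from its brightest probe set by mean signal over all 6 arrays, which can favour a probe set that is high in 1 group only. Groups followed the labels. limma 3.58.1 in R 4.3.3 (lmFit, then eBayes, no block) tested the 11288 probe sets, with Benjamini-Hochberg adjustment and a threshold of 0.05. The fit was tested on simulated data in which far fewer probe sets differed than here. The background level rests on 10 olfactory receptors (95th percentile per array) and is rough. Precision is limited by the number of arrays. The limma p-values set a group difference against the spread between these arrays, moderated over the probe sets by eBayes. Promoters came from RefSeq (GRCm38.p6). Plots used Python 3.11.15 and matplotlib 3.10.9.

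The genes and lists were chosen with earlier results of these data known. Named were all 10 genes with every probe set and, of each list, the genes that passed with the sign opposite to that of most of the list and up to 4 with the largest differences among those that passed without overlap of the groups. Genes that alone made up a small count were named after their values were seen. A further list of genes is not reported here. The alternatives were a replicate block, the omission of each array, centring on the median, quantile normalization, dim probe sets left out by 3 filters, robust eBayes with an intensity trend, averaged probe sets, a fit of the whole table, the methods' t-test, a minimum log2 difference of 1 and, added after the data were seen, the dimmer *Prkcz* probe set.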

Additional observations from a re-analysis of the deposited data

How the results depend on the processing

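No difference of the 10 genes changed its direction under any alternative run, and the 8 genes that passed did so in every alternative that kept them, apart from the minimum log2 difference of 1, under which *Crb3*, *Pard3*, *Scrib* and *Prkci* were not counted. The filter on probe sets below the median left out *Pard6b*, *Prkcz*, *Crb3* and *Llgl2*, and the other filters on dim probe sets left out *Crb3*. The number of the 10 genes higher on the MEF-labelled arrays, 8 as deposited, was 4 without probe sets below the median and 4 with a minimum log2 difference of 1, and stayed at 8 when each array was left out in turn. The number higher on the keratinocyte-labelled arrays, 0 by limma as deposited, was 2 with median centring and 2 with quantile normalization (*Llgl1* and *Dlg1*), 1 without probe sets below the median (*Llgl1*, adjusted p = 0.0393), 1 with probe sets above the olfactory background on at least 3 arrays (*Llgl1*, adjusted p = 0.0484), and 0 to 1 with each array left out in turn, the 1 being *Llgl1* without the first keratinocyte-labelled array. Of the 57 further polarity genes, the 32 higher on the MEF-labelled arrays became 21 with the minimum log2 difference of 1, and the 18 higher on the keratinocyte-labelled arrays became 8 with that minimum, 8 without probe sets below the median and 11 with the olfactory background. Over all genes, the 7649 that passed became 2918 with the minimum difference and 4169 without probe sets below the median. The filters test fewer genes. Replicate numbers did not pair the arrays: arrays of the same number deviated from their group means with correlations of -0.23, -0.21 and -0.03. With the replicate block 8 and 0 of the 10 genes, 31 and 17 of the 57 and 7059 of all genes passed. The difference of *Prkcz*, keratinocyte-labelled arrays minus MEF-labelled arrays, ranged from -4.20 to -0.42, the latter with the dimmer probe set.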

Other observations

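The genes of planar cell polarity, which orients cells within the plane of a tissue, were read from a list of 14, of which 11 were measured. As deposited, 5 were higher on the MEF-labelled arrays, 4 on the keratinocyte-labelled arrays and 2 did not pass, beside 41.7% and 32.9% of all genes in these directions. With median centring or quantile normalization *Dvl1* joined those higher on the keratinocyte-labelled arrays. *Celsr1*, an atypical cadherin of this pathway, had a mean log2 signal (± SD over 3 arrays) of 3.83 ± 0.26 on the keratinocyte-labelled arrays and 7.77 ± 0.13 on the MEF-labelled arrays, at least 4.19-fold higher on the latter (adjusted p = 6.72e-08, limma). *Fzd6*, a Frizzled receptor known from skin, and *Vangl1* were each 3.18-fold higher there, with adjusted p-values of 1.88e-06 and 6.56e-07. *Prickle1* was at 5.52 ± 0.08 on the keratinocyte-labelled arrays, with 1 of 3 above background, and 3.38 ± 0.23 on the MEF-labelled arrays (adjusted p = 1.3e-06). *Fzd3* and *Prickle2* had the same direction but were above background on no array. *Ptk7*, a pseudokinase receptor, was 1.33-fold higher on the keratinocyte-labelled arrays (adjusted p = 0.00781).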
